A study of Mus musculus with 24 samples.

Results

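*Gjb1*, *2410004A20Rik*, *Neurog3*, *Foxr1*, *Zscan5b*, *Il17re* and *Ccno* are 7 of the 25965 gene entries measured by RNA-seq in differentiating mouse embryonic stem cells (mESCs). They were chosen by their measured values, as genes with large rises over the control that were shared by both hairpins after knockdown of *Smarcc1* or *Smarca4*. Ranked by the mean rise over the days, among genes past an adjusted *p* of 0.05 that both hairpins raised on all days, *Gjb1*, *2410004A20Rik* and *Neurog3* are among the 5 largest rises of *Smarcc1* knockdown. *Foxr1*, *Zscan5b*, *Il17re* and *Ccno* are among the 5 largest of *Smarca4* knockdown. The rule thus used the level of every library, and comparisons of the 7 genes between groups, days or hairpins are given as a description, with no test.

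The cells were male C57/Bl6 mESCs that were grown in 2i, the inhibitor medium that holds them in the naive state, and then moved to a medium in which they differentiate. A virus carried in a short hairpin RNA on day 2, and puromycin selection began on day 3. The control hairpin has no mouse target and is called nonsilencing (Nons). Hairpins Smarcc1.6 and Smarcc1.7 target *Smarcc1*, and Smarca4.4 and Smarca4.6 target *Smarca4*. Controls therefore also carried virus and were also selected. RNA was sequenced on days 4, 5, 6 and 7, with 1 library per hairpin and day, which gives 8 *Smarcc1* knockdown, 8 *Smarca4* knockdown and 4 Nons libraries. The 4 libraries of a further Nons replicate were not analysed here, so each comparison with Nons rests on 1 control library per day. The genotype labels call the *Smarca4* libraries Smarcc knockdown, but their titles name *Smarca4* and were followed. Library totals ranged from 6829596 reads, for Smarca4.4 on day 5, to 27472885 reads, for Nons on day 4.

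Smarcc1 and Smarca4 are subunits of BAF, a complex that uses ATP to slide and evict nucleosomes and so opens or closes DNA to other factors. Smarca4 hydrolyses the ATP that drives this work, while Smarcc1 has a structural role and helps to keep other subunits stable. In mESCs BAF acts both at genes that are kept on and at genes that are kept off, and many genes that are silent in stem cells or in early differentiating cells are tied to 1 later tissue. The question addressed by these libraries is how cells that lose either subunit differ from control cells along differentiation.

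The targets themselves were lower in the libraries named for them. *Smarcc1* stood at 23.7% to 60.1% of same-day Nons in the 8 *Smarcc1* knockdown libraries (log2 difference -1.33, limma adjusted *p* = 0.00115). *Smarca4* stood at 21.6% to 55.3% in the 8 *Smarca4* knockdown libraries (log2 difference -1.79, adjusted *p* = 0.00277, or 0.0692 without Smarca4.6). The highest *Smarcc1* level belonged to Smarcc1.7 on day 6 and the highest *Smarca4* level to Smarca4.4 on day 6. *Smarca4* in *Smarcc1* knockdown ranged from 60.2% to 223% of Nons, and *Smarcc1* in *Smarca4* knockdown from 80.9% to 190%.

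Most of the 7 genes are known from specialised cells. *Gjb1* encodes connexin 32, a gap junction channel protein of hepatocytes and myelinating Schwann cells. *2410004A20Rik* is the older name of *Khdc3*, which encodes a KH domain protein of the oocyte and of embryonic stem cells. *Neurog3* encodes the proneural bHLH factor that starts the endocrine lineages of pancreas and gut. *Foxr1* encodes a forkhead factor and *Zscan5b* a zinc finger protein with a SCAN domain. *Il17re* encodes a receptor subunit for IL17 family cytokines. *Ccno* encodes a cyclin-like protein needed for centriole multiplication in multiciliated cells. All 7 are protein coding in the mouse annotation of build GRCm38 (mm10), the build of the deposited values, and they lie on 6 chromosomes. *2410004A20Rik* (chr9:73101836-73104443, plus strand) and *Foxr1* (chr9:44434234-44440868, minus strand) share chromosome 9. The others are *Gjb1* (chrX:101376378-101385629, plus), *Neurog3* (chr10:62133090-62134763, plus), *Zscan5b* (chr7:6222278-6239423, plus), *Il17re* (chr6:113458484-113470751, plus) and *Ccno* (chr13:112987802-112990778, plus).

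The promoters of the 7 genes are not alike in base composition. RefSeq windows of GRCm38.p6 that run from 250 bases before to 50 bases after a start were at hand for 6 of them, *Khdc3* standing for *2410004A20Rik*. The dinucleotide CG, counted because promoters rich and poor in CG are read differently by chromatin regulators, occurred 33 times in the window of *Ccno*, 19 times in that of *Neurog3* and 16 times in that of *Foxr1*. It occurred 3 times in that of *Il17re*, 3 times in that of the *Gjb1* start nearest the 5′ end of the gene and 0 times in that of *Khdc3*. Over all 32841 windows the median was 7 and the quartiles were 3 and 20, and 94.6% held at least 1 CG. The 4 windows below span this range and belong to genes on which the results turn. Each is written 5′ to 3′ on the plus strand with every CG in capitals. They lie at chrX:101376126-101376425, chr9:73102148-73102447, chr10:62132840-62133139 and chr13:112987552-112987851.
Gjb1: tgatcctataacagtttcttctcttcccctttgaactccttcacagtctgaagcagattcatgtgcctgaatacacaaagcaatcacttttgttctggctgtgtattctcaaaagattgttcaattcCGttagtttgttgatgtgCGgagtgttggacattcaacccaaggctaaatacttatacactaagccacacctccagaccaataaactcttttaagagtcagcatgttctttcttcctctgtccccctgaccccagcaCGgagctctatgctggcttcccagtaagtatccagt
Khdc3: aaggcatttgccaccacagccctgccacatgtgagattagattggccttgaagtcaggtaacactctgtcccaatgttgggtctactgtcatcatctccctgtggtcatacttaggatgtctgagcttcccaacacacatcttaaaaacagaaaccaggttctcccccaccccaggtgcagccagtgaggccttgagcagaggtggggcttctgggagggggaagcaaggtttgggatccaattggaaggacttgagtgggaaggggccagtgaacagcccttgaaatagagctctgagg
Neurog3: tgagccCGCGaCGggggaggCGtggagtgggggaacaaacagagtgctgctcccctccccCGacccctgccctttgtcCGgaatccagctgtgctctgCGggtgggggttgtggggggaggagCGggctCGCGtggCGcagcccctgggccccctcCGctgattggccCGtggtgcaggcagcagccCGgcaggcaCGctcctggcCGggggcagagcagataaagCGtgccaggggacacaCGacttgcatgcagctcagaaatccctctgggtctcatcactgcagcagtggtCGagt
Ccno: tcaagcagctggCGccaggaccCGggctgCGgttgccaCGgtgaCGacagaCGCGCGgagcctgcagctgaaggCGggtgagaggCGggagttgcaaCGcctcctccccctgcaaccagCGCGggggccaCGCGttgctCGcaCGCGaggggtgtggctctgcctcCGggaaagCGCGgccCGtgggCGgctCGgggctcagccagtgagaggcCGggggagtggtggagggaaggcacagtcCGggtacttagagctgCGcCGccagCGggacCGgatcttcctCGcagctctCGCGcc
The *Khdc3* start lies downstream of the start that the deposited values give for *2410004A20Rik*, inside that gene. *Gjb1* has 4 annotated starts, and the window of the one nearest the 3′ end of the gene holds 15 CG. Other motifs were searched on both strands, apart from CG, which reads the same on both. The GC box GGGCGG was found in the *Ccno* window, in that of the *Gjb1* start nearest the 3′ end and in 35.7% of all windows. The E-box CAGCTG, which proneural bHLH factors can bind and which overlaps no CG, was found in the windows of *Ccno*, *Neurog3* and *Foxr1* and in 16.3% of all. TATAAA (13.6% of all windows) and the octamer ATTTGCAT (1.74%) were absent from the 4 windows printed. A match describes the letters and not a binding site.

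Levels are in rpm, a gene's reads scaled to a common library total, and the number of reads behind a value sets its precision. A value of 0 means no read, and 3 reads, taken as the floor, are worth 0.109 rpm in the deepest library and 0.439 rpm in the shallowest. Intervals below are exact 95% limits of a ratio of read counts, and they cover counting error only. They describe precision and are no test, since the genes were chosen by these values. In bulk RNA, fewer cells that express a gene and less RNA per cell cannot be told apart.

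**Figure D1:**
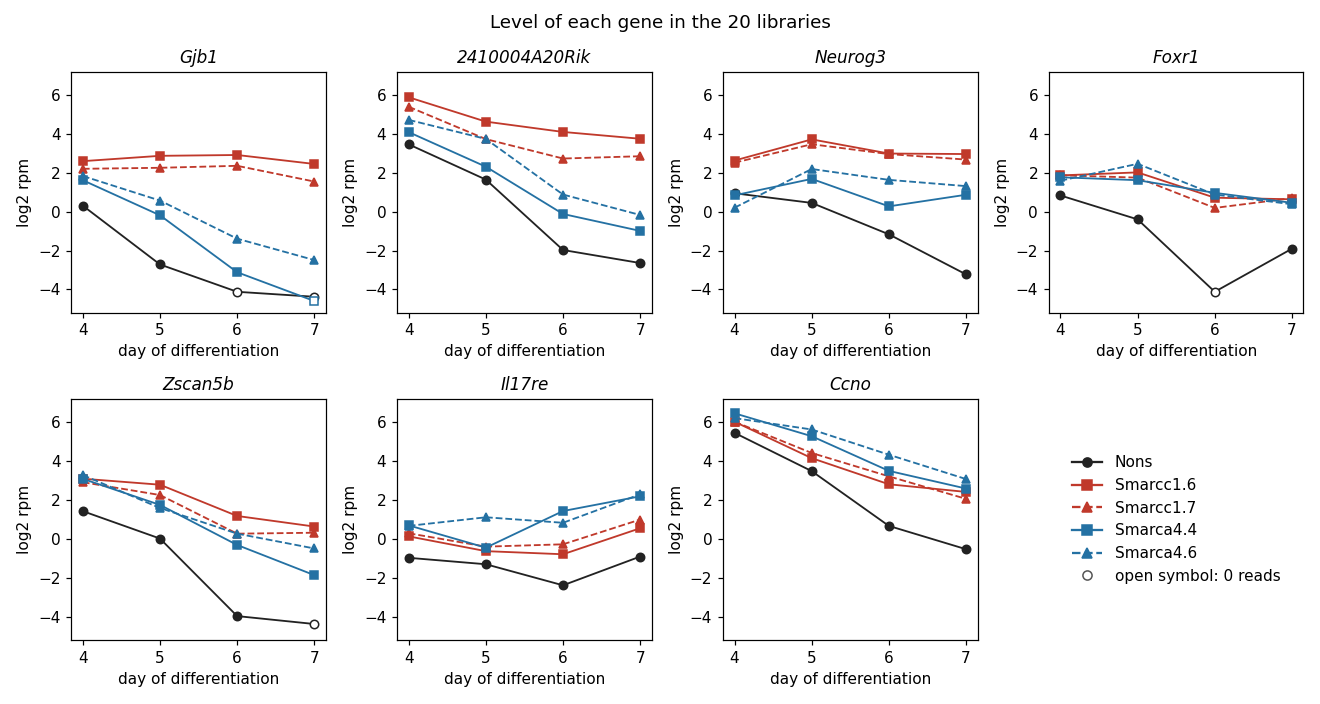
Level of each of the 7 genes (log2 rpm, vertical axis) by day of differentiation (horizontal axis) in the 20 libraries; lines join the libraries of a hairpin or of Nons, and open symbols mark 0 reads, drawn at the lowest value of their library. *Gjb1* stayed between 2.93 and 7.57 rpm in *Smarcc1* knockdown while it fell to 0 reads in Nons, and *Il17re* was highest in *Smarca4* knockdown on day 7.

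**Figure D2:**
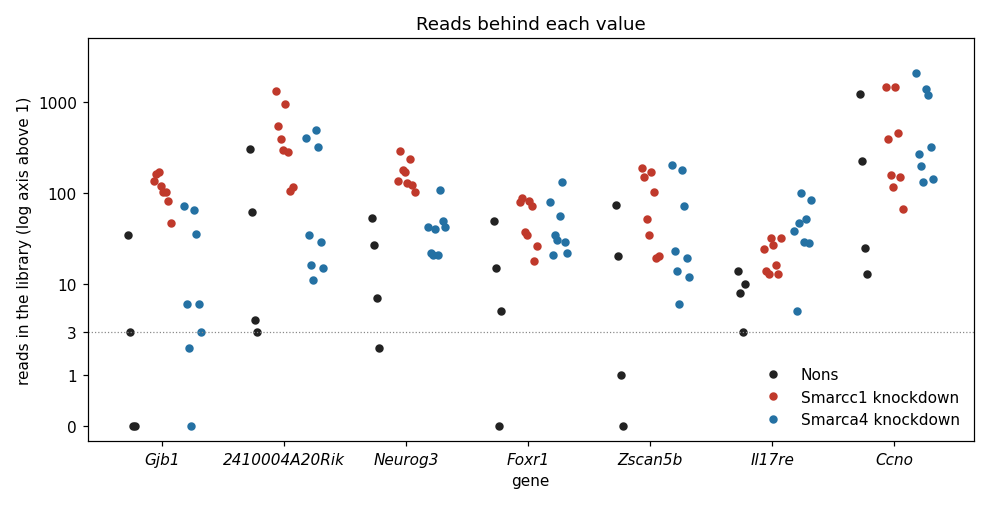
Reads (log axis above 1) behind each value of the 7 genes, 1 point per library; the dotted line marks 3 reads. *Ccno* and *2410004A20Rik* reached 2075 and 1300 reads, whereas the 4 Nons values of *Gjb1* were 34, 3, 0 and 0 reads.

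*Gjb1* had the largest fitted rise in *Smarcc1* knockdown (log2 difference 5.13), a rank that counts 0 reads in Nons as 0.9 read. With 1 added to rpm the difference was 2.32, below that of *2410004A20Rik* at 2.69. Nons held 1.24 rpm on day 4 (34 reads), 0.152 rpm on day 5 (3 reads) and 0 reads on days 6 and 7. Smarcc1.6 held 6.07, 7.34, 7.57 and 5.49 rpm on days 4, 5, 6 and 7, and Smarcc1.7 held 4.62, 4.79, 5.14 and 2.93 rpm. The *Smarcc1* knockdown libraries thus kept a level above every Nons library, with 47 to 170 reads each. Smarca4.4 went from 3.07 rpm to 0.879, 0.115 and 0 rpm, and Smarca4.6 from 3.57 rpm to 1.49, 0.381 and 0.178 rpm. *Smarca4* knockdown started above Nons and then ran down as Nons did, so that its later values overlapped with those of Nons. On day 4 the ratio to Nons was 4.90 (95% limits 3.34 to 7.38) for Smarcc1.6 and 2.48 (1.63 to 3.85) for Smarca4.4. On day 7, with the 3-read floor set in place of the 0 reads of Nons, *Gjb1* was 34.4-fold higher in Smarcc1.6 and 18.3-fold higher in Smarcc1.7. The exact lower 95% limits of the ratio to Nons, which also cover the error of the knockdown reads, were 27.5 and 14.3.

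*2410004A20Rik* was detected in all 20 libraries. Nons fell from 11.1 rpm on day 4 to 3.14, 0.255 and 0.160 rpm, the last 2 of these from 4 and 3 reads. Smarcc1.6 held 59.3, 24.9, 17.2 and 13.5 rpm on days 4, 5, 6 and 7, and Smarcc1.7 held 42.3, 13.3, 6.67 and 7.23 rpm. The lowest *Smarcc1* knockdown level was above the Nons level of days 5, 6 and 7 and under that of day 4. Smarca4.4 held 17.1, 4.98, 0.921 and 0.503 rpm, and Smarca4.6 held 26.5, 13.4, 1.84 and 0.889 rpm. On day 7 the ratio to Nons was 84.4 (28.6 to 412) in Smarcc1.6 and 3.15 (0.832 to 17.6) in Smarca4.4, and the limits of the latter include 1. *Gm20509* lies on the same strand and shares 38.5% of the exonic bases of *2410004A20Rik*, so the split of reads between these genes is uncertain.

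*Neurog3* had few reads in Nons from day 6 on, whereas each knockdown library held at least 21 reads. Nons went from 1.93 rpm on day 4 to 1.37, 0.445 and 0.107 rpm, or from 53 to 2 reads. Smarcc1.6 held 6.21, 13.2, 7.97 and 7.82 rpm, and Smarcc1.7 held 5.75, 11.1, 7.81 and 6.42 rpm. Each *Smarcc1* knockdown hairpin was thus highest on day 5, and all 8 libraries were above every Nons library. Smarca4.4 held 1.79, 3.22, 1.21 and 1.83 rpm, and Smarca4.6 held 1.15, 4.59, 3.11 and 2.49 rpm. On day 4 these were at 0.930 (0.605 to 1.42) and 0.598 (0.343 to 1.01) of Nons, both with limits that include 1. On day 7 they were at 17.2 (4.45 to 147) and 23.4 (6.08 to 199) times Nons. *2010107G23Rik* (current symbol *Fam241b*) runs over *Neurog3* on the other strand and shares 16.3% of its exonic bases. Whether strand was used in counting is not given in the sources used here, so reads of these genes cannot be told apart where they overlap.

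*Foxr1* and *Zscan5b* were above same-day Nons in every library of both knockdowns. *Foxr1* in Nons was at 1.78, 0.760, 0 and 0.266 rpm on days 4 to 7, or 49, 15, 0 and 5 reads. The 8 *Smarcc1* knockdown libraries ranged from 1.14 to 4.06 rpm (median 2.51) and the 8 *Smarca4* knockdown libraries from 1.30 to 5.52 rpm (median 2.49). Both knockdowns overlapped with the Nons library of day 4 and were above the other Nons libraries. *Zscan5b* in Nons was at 2.69, 1.01, 0.0636 and 0 rpm, the last 2 from 1 and 0 reads. It ranged from 1.21 to 8.58 rpm (median 3.53) in *Smarcc1* knockdown and from 0.275 to 9.78 rpm (median 2.11) in *Smarca4* knockdown. On day 7 it was 9.73-fold and 7.80-fold higher than the Nons floor in Smarcc1.6 and Smarcc1.7, and 1.72-fold and 4.45-fold higher in Smarca4.4 and Smarca4.6. The exact lower 95% limits were 7.49, 5.78, 1.01 and 3.09 in this order, that of Smarca4.4 resting on 6 reads.

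*Il17re* had under 15 reads in every Nons library and its highest levels on day 7 of *Smarca4* knockdown. Nons was at 0.510, 0.405, 0.191 and 0.533 rpm, from 3 to 14 reads each. Smarca4.4 held 1.62, 0.732, 2.71 and 4.57 rpm, and Smarca4.6 held 1.59, 2.17, 1.78 and 4.92 rpm. The day 5 value of Smarca4.4 comes from 5 reads of the shallowest library, and its ratio to Nons was 1.81 (0.465 to 6.27). *Smarcc1* knockdown ranged from 0.579 to 2.00 rpm (median 0.960) and every knockdown library was above every Nons library. On day 7 the ratio to Nons was 8.58 (4.48 to 18.5) in Smarca4.4 and 9.23 (4.78 to 19.96) in Smarca4.6.

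*Ccno* was the most abundant of the 7 in every Nons library, and its level was lower on each later day with every hairpin. Nons was at 44.1, 11.2, 1.59 and 0.693 rpm, or 1211, 222, 25 and 13 reads. Smarca4.4 held 88.6, 39.1, 11.3 and 6.04 rpm, and Smarca4.6 held 74.6, 49.7, 20.2 and 8.47 rpm. Smarcc1.6 held 65.5, 17.9, 7.03 and 5.35 rpm, and Smarcc1.7 held 65.5, 21.5, 9.33 and 4.18 rpm. The knockdown libraries were above Nons on each day, although those of days 5 to 7 overlapped with Nons of earlier days. The ratio of Smarca4.6 to Nons was 1.69 (1.57 to 1.83) on day 4 and 12.2 (6.93 to 23.5) on day 7.

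Per kilobase of annotated exon, the order of the levels changed with knockdown and day. In Nons on day 4 the level was 17.3 rpm per kb for *Ccno*, 5.40 for *2410004A20Rik*, 1.36 for *Zscan5b*, 1.15 for *Neurog3*, 0.779 for *Foxr1*, 0.725 for *Gjb1* and 0.0868 for *Il17re*. In *Smarcc1* knockdown on day 7 (mean of 2 hairpins) the highest levels were 5.06 rpm per kb for *2410004A20Rik*, 4.26 for *Neurog3* and 2.47 for *Gjb1*. In *Smarca4* knockdown on day 7 they were 2.84 for *Ccno*, 1.29 for *Neurog3* and 0.809 for *Il17re*, and *Gjb1* was lowest at 0.0521. *Zscan5b* and *Foxr1* in *Smarcc1* knockdown on that day, at 0.708 and 0.693 rpm per kb, differed by less than the gap between hairpins.

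Averaged over the days, all 7 genes were above Nons in both knockdowns, as the choice of genes fixes for the knockdown that named each. Both comparisons share the 4 Nons libraries. Across all 13296 genes tested, 10.6% passed in *Smarcc1* knockdown (7.54% higher, 3.08% lower) and 6.71% in *Smarca4* knockdown (4.75% higher, 1.96% lower), or 1412 and 892 genes. With the replicate block, a fit that treats the libraries of a hairpin as a series, 605 and 258 genes passed, and with a mean of at least 10 rpm 579 and 324. In *Smarcc1* knockdown 818 passed without Smarcc1.7, and in *Smarca4* knockdown 416 passed without Smarca4.4, 272 without Smarca4.6 and 573 with reads thinned to the smallest library. Higher and lower calls split 600 and 518 in *Smarcc1* and 351 and 313 in *Smarca4* knockdown with quantile normalization, and 541 and 353 in *Smarca4* knockdown with every library centred on its median gene. The log2 differences in *Smarcc1* and *Smarca4* knockdown were 5.13 and 1.76 for *Gjb1* (SE 0.42), 4.02 and 1.69 for *2410004A20Rik* (SE 0.36), and 3.75 and 1.88 for *Neurog3* (SE 0.25). They were 2.62 and 2.67 for *Foxr1* (SE 0.20), 3.41 and 2.64 for *Zscan5b* (SE 0.28), 1.38 and 2.49 for *Il17re* (SE 0.28), and 1.62 and 2.37 for *Ccno* (SE 0.18). These fitted values count 0 reads as 0.9 read and so are no bounds for *Gjb1*, *Foxr1* and *Zscan5b*, which have Nons libraries without a read. With 1 added to rpm all were smaller and their order changed. In *Smarca4* knockdown they were then 1.92 for *Ccno*, 1.215 for *Il17re*, 1.14 for *Foxr1* and 0.996 for *Zscan5b*, and in *Smarcc1* knockdown 2.69 for *2410004A20Rik*, 2.32 for *Gjb1* and 2.30 for *Neurog3*. The median of the 7 was 3.41 and 2.37, against 0.06 and 0.06 over all genes tested. All 7 passed the filter for testing (a mean log2 rpm of at least 0), but *Gjb1*, with a mean of 0.028, and *Il17re*, with 0.15, lay close to it. *Gjb1* passed through its level in *Smarcc1* knockdown and *Il17re* through its level in *Smarca4* knockdown.

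In all, 694 genes passed the threshold and were raised by both hairpins on all days in *Smarcc1* knockdown, and 482 in *Smarca4* knockdown. *Gjb1* and *Neurog3* do not meet this in *Smarca4* knockdown, where *2410004A20Rik* ranked 32. In *Smarcc1* knockdown *Zscan5b* ranked 8, *Foxr1* 20, *Ccno* 137 and *Il17re* 192. Inside the 5 largest but not among the 7 were *Gm14569* (log2 difference 4.88) and *Gm44* (3.56) for *Smarcc1* and *Cfc1* (2.52) for *Smarca4*. Just outside were *Stra8* (3.56) and *Gm7325* (3.47) for *Smarcc1*, and *Mmd2* (2.37) and *Sox1* (2.33) for *Smarca4*. The steps at this border are small, since the fifth gene of *Smarca4* knockdown, *Ccno*, stood at 2.368 and the sixth, *Mmd2*, at 2.366.

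The gap from Nons was wider on day 7 than on day 4 for several of the 7 genes. In *Smarcc1* knockdown the mean log2 difference from same-day Nons went from 2.18 on day 4 to 5.95 on day 7 for *2410004A20Rik* and from 1.63 to 6.06 for *Neurog3*, where the Nons library of day 7 held 3 and 2 reads. For *Gjb1* it was 2.10 on day 4, and none is given for day 7, when Nons had 0 reads. In *Smarca4* knockdown it went from 0.88 to 3.37 for *Ccno*, from 1.66 to 3.15 for *Il17re* and from -0.42 to 4.32 for *Neurog3*. Between these days the Nons level went down for the genes named here other than *Il17re*, which stood at 0.510 and 0.533 rpm in Nons. The widening was not tested, since the choice of genes used the daily differences.

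**Figure D3:**
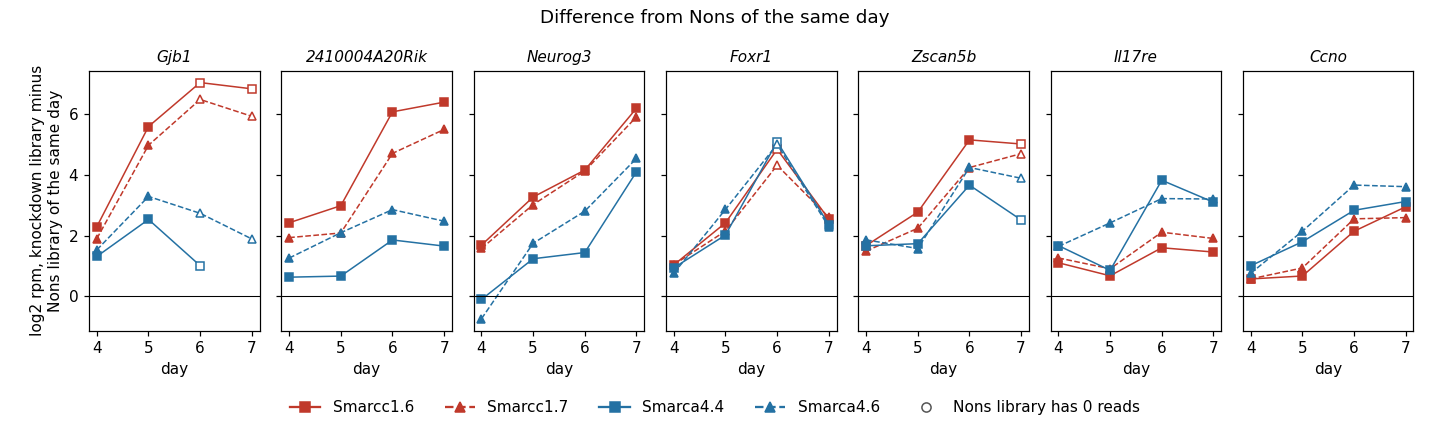
Difference in log2 rpm between each knockdown library and Nons of the same day (vertical axis) by day (horizontal axis) for the 7 genes, 1 line per hairpin; open symbols mark days on which Nons had 0 reads, and no point is drawn where both had none. *Neurog3* in *Smarca4* knockdown went from -0.42 on day 4 to 4.32 on day 7 as the mean of its hairpins.

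The change from day 4 to day 7 within a group was fitted with limma over all 13296 genes, from 12 group and day means with 8 residual degrees of freedom. For the 7 genes its values are a description. In Nons the differences in log2 rpm were -4.69 for *Gjb1* (SE 0.97), -6.11 for *2410004A20Rik* (SE 0.84), -4.18 for *Neurog3* (SE 0.58), -2.74 for *Foxr1* (SE 0.47), -5.81 for *Zscan5b* (SE 0.64), -5.99 for *Ccno* (SE 0.41) and 0.06 for *Il17re* (SE 0.65). Those of *Gjb1* and *Zscan5b* count 0 reads on day 7 as 0.9 read and are no bounds. Of all genes tested 14.3% fell and 17.6% rose in Nons (31.9% in all), from which nothing is read for the 7. Nons has 1 library per day, which is assumed here to vary as the hairpin pairs do.

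In *Smarcc1* knockdown, *Ccno* (-3.79, SE 0.29), *Zscan5b* (-2.53, SE 0.45), *2410004A20Rik* (-2.34, SE 0.59) and *Foxr1* (-1.21, SE 0.33) were each lower on day 7 with both hairpins. *Gjb1* (-0.40, SE 0.68), *Neurog3* (0.25, SE 0.41) and *Il17re* (0.56, SE 0.46) differed by less than 2 SE, and with quantile normalization the latter 2 turned sign (-0.40 and -0.39). Of all genes tested 18.4% fell and 29.8% rose by limma (48.2% in all), from which again nothing is read for the 7. These were 6410 genes, but 3942 without Smarcc1.6 and 3740 without Smarcc1.7. Rises and falls split 3957 and 2453, and 3166 and 3380 with every library centred on its median gene.

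In *Smarca4* knockdown, *Gjb1* (-5.28, SE 0.68, with 0 reads in Smarca4.4 on day 7 counted as 0.9 read), *2410004A20Rik* (-4.99, SE 0.59), *Zscan5b* (-4.37, SE 0.45), *Ccno* (-3.51, SE 0.29) and *Foxr1* (-1.26, SE 0.33) were each lower on day 7 with both hairpins. *Il17re* was higher on day 7 with both hairpins (1.56, SE 0.46), and *Neurog3* differed by 0.57 (SE 0.41). Of all genes tested 21.1% fell and 27.1% rose (48.2% in all), or 6403 genes, but 3347 without Smarca4.4 and 3475 without Smarca4.6. The median gene differed by 0.16 between these days in *Smarcc1* knockdown and by 0.08 in *Smarca4* knockdown. With every library centred on its median gene these medians were -0.08 and -0.09.

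**Figure D4:**
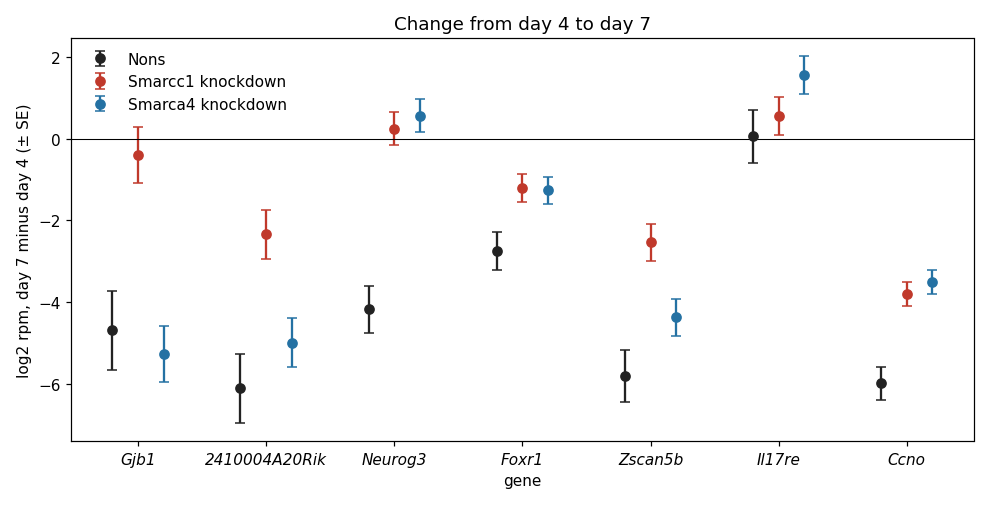
Change in log2 rpm from day 4 to day 7 (vertical axis, points with bars of 1 SE from the limma fit) of the 7 genes in Nons, *Smarcc1* knockdown and *Smarca4* knockdown. *Gjb1* stands at -0.40 in *Smarcc1* knockdown and at -4.69 and -5.28 in Nons and *Smarca4* knockdown, where days with 0 reads count as 0.9 read.

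The difference between the knockdowns in this change was 4.87 for *Gjb1* (SE 0.97), 2.65 for *2410004A20Rik* (SE 0.84) and 1.84 for *Zscan5b* (SE 0.64). It was -0.999 for *Il17re* (SE 0.65), -0.32 for *Neurog3* (SE 0.58), -0.29 for *Ccno* (SE 0.41) and 0.06 for *Foxr1* (SE 0.47), all of these within 2 SE of 0. Over all genes the difference was tested with limma, and 1 gene passed (0.00752%), *Lefty2*, a Nodal antagonist (1.92, adjusted *p* = 0.0492), which lies outside the rule for naming genes and was chosen after its value was seen. At an unadjusted *p* under 0.05 there were 677 genes, and by limma-voom 0 genes passed. With the replicate block 19 genes passed.

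The 2 hairpins against each target were compared over the 4 days. No gene of the 13296 passed for either pair with limma (0%), while 3655 had an unadjusted *p* under 0.05 for *Smarcc1* and 1158 for *Smarca4*. Without the Smarca4.4 library of day 5 the latter count was 584. By limma-voom on recovered reads 0 and 0 passed as well, with 3701 and 970 at an unadjusted *p* under 0.05. Of the 7 genes, *2410004A20Rik* had the largest difference between Smarcc1.6 and Smarcc1.7 (0.91 higher in Smarcc1.6, SE 0.20). *Gjb1* had the largest between Smarca4.4 and Smarca4.6 (-1.20, lower in Smarca4.4, SE 0.32), followed by *2410004A20Rik* (-0.97, SE 0.20). The *Gjb1* value counts 0 reads in Smarca4.4 on day 7 as 0.9 read. Over the alternatives it ranged from -1.35 to -0.28 and that of *2410004A20Rik* from -1.49 to -0.69, so their order depended on the processing. All 7 genes were lower in Smarca4.4 than in Smarca4.6 on average. This sign turned for *Foxr1* and *Il17re* without the Smarca4.4 library of day 5, which is the shallowest.

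Neighbours on the chromosome were looked at because they were not used in the choice. *Gm20509* and *2010107G23Rik* overlap *2410004A20Rik* and *Neurog3* and may share their reads, so their values may depend on the chosen genes. Of 12 neighbouring or overlapping genes tested, 4 were higher in *Smarcc1* knockdown, *2010107G23Rik* among them, and 3 in *Smarca4* knockdown, with 1 lower in the latter. Over all genes tested, 7.54% and 4.75% were higher and 3.08% and 1.96% lower in *Smarcc1* and *Smarca4* knockdown. Calls lost with the replicate block are given by gene below. *Zmym3*, a zinc finger gene on the X chromosome that lies 18754 bases from *Gjb1* on the other strand, was higher by 2.46 in *Smarcc1* knockdown (SE 0.17, adjusted *p* = 5.24e-06) and by 1.48 in *Smarca4* knockdown (SE 0.17, 0.000395). Its median level was 11.2 rpm in Nons, 65.7 rpm in *Smarcc1* knockdown and 32.0 rpm in *Smarca4* knockdown, and its r with *Gjb1* over 20 libraries was 0.881. *Gm6792*, beside *Zscan5b*, was higher by 2.06 (SE 0.22, adjusted *p* = 8.02e-05) and 1.695 (SE 0.22, 0.000668). *Rab27a*, a small GTPase of vesicle transport that ends 4243 bases from *2410004A20Rik*, was higher by 0.97 (SE 0.16, adjusted *p* = 0.00145) and 0.80 (SE 0.16, 0.00866). For the latter the adjusted *p* was 0.0513 with the replicate block and up to 0.0986 without 1 hairpin.

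The gene that overlaps *2410004A20Rik* did not share its mean rise over Nons. *Gm20509* differed by -0.01 (adjusted *p* = 0.990) and -0.20 (0.558), at median levels of 23.4, 22.2 and 18.7 rpm in Nons, *Smarcc1* and *Smarca4* knockdown. Its r with *2410004A20Rik* over 20 libraries was 0.542. *2010107G23Rik*, which overlaps *Neurog3*, was higher in *Smarcc1* knockdown (0.74, SE 0.19, adjusted *p* = 0.0267, but 0.0997 with the replicate block and up to 0.112 without 1 hairpin) and did not pass in *Smarca4* knockdown (0.31, adjusted *p* = 0.418). *Gm5424*, on its other side, was lower in *Smarca4* knockdown (-0.62, SE 0.17, adjusted *p* = 0.0491), a call lost in 10 of 14 alternatives (adjusted *p* = 0.196 with the replicate block). *Il17rc*, which begins 675 bases past *Il17re* on the same strand, differed by -0.19 (adjusted *p* = 0.779) and -0.09 (0.927). *Rsl24d1*, *Tspan15*, *Ccdc84*, *Jagn1* and *Dhx29* did not pass in either knockdown, with log2 differences from -0.11 to 0.49. *Nlgn3*, *Upk2*, *Galp* and *Gm6320* lay under the filter. *Gm6320*, now *Mcidas*, is with *Ccno* part of a cluster for multiciliated cells, and its median stood at 0.101 rpm in Nons, 0.283 rpm in *Smarcc1* and 0.368 rpm in *Smarca4* knockdown.

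**Figure D5:**
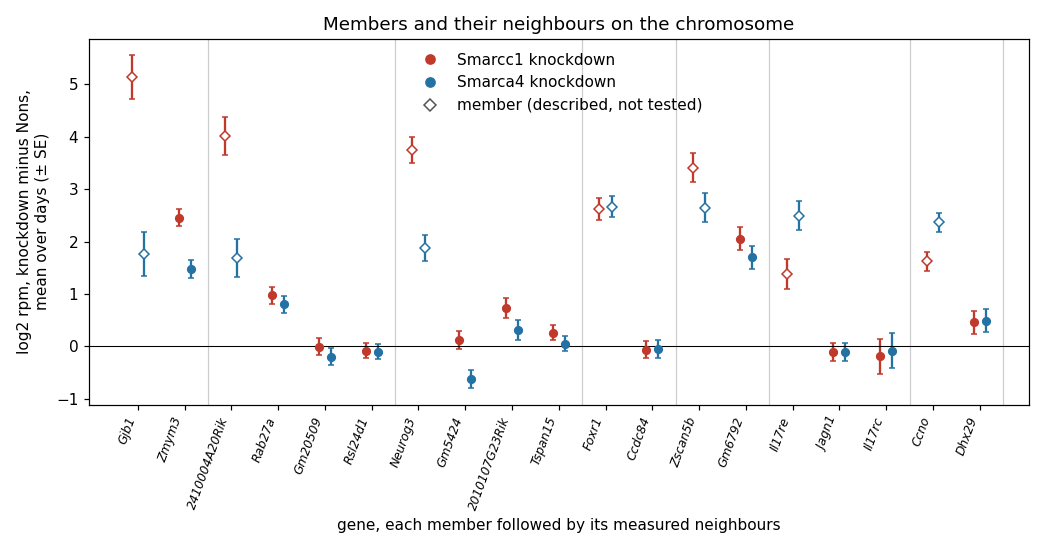
Log2 difference from Nons averaged over days (vertical axis, bars of 1 SE from the limma fit) of the 7 genes (open diamonds) and of their tested neighbours (filled circles) in *Smarcc1* and *Smarca4* knockdown. *Zmym3*, *Gm6792* and *Rab27a* stand above 0 in both knockdowns, at 2.46 and 1.48, 2.06 and 1.695, and 0.97 and 0.80, whereas *Gm20509* and *Il17rc* stand near 0.

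The families of the 7 genes did not follow them as a whole. The shares of all genes tested that passed are those given above, and the median log2 difference of all genes was 0.06 in each knockdown. An adjusted *p* "with the block" is from the fit with the replicate block, and one "without a hairpin" is the highest with any 1 hairpin left out, given where that ends a call. Of 5 other connexins tested, 1 was higher in *Smarcc1* knockdown and 0 lower (medians 0.47 in *Smarcc1* and 0.24 in *Smarca4* knockdown). *Gjc1* was higher in *Smarcc1* knockdown (0.78, limma adjusted *p* = 0.00212, in 8 of 8 libraries). *Gja1*, or connexin 43, the most abundant at a median of 433 rpm in Nons, differed by 0.05 (adjusted *p* = 0.785) and -0.03 (0.919).

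Proneural and endocrine factors moved in both directions. Of 8 others tested beside *Neurog3*, 2 were higher and 1 lower in *Smarcc1* knockdown, and 2 higher and 2 lower in *Smarca4* knockdown (medians 0.24 and 0.30). *Insm1*, a zinc finger factor of endocrine precursors, was higher by 1.84 (adjusted *p* = 0.00102) and 2.03 (0.00106), in all 8 libraries of each. The Notch ligand gene *Dll1* was higher by 1.76 (adjusted *p* = 0.000365, in 8 of 8 libraries) and 1.26 (0.00605, in 6 of 8), the latter with 0.0974 without a hairpin. *Rfx6*, a factor of endocrine cells that acts after *Neurog3*, was lower by -2.29 (adjusted *p* = 8.32e-05) and -1.28 (0.00818), above Nons in 0 of 8 libraries of each, and the latter had 0.0586 with the block and 0.0809 without a hairpin. *Neurod1*, a target of *Neurog3* in endocrine cells, was lower in *Smarca4* knockdown (-1.15, adjusted *p* = 0.0245), with 0.181 with the block and 0.0660 without a hairpin. *Hes1*, the most abundant, differed by -0.30 (adjusted *p* = 0.227) and -0.23 (0.417).

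Of 10 other multiciliation genes, 1 was higher and 1 lower in *Smarcc1* knockdown and 1 higher in *Smarca4* knockdown (medians 0.11 and 0.08). *Rfx2*, a factor of cilium genes, was higher by 1.29 (adjusted *p* = 0.0150, in 7 of 8 libraries) and 1.21 (0.0318, in 8 of 8), with 0.0908 and 0.171 with the block and 0.0647 and 0.191 without a hairpin. *Foxj1*, the master factor of motile cilia, was lower in *Smarcc1* knockdown (-0.96, adjusted *p* = 0.0477, above Nons in 2 of 8 libraries), with 0.206 with the block and 0.133 without a hairpin. In *Smarca4* knockdown it differed as much (-0.96, adjusted *p* = 0.0647, also above Nons in 2 of 8 libraries) and passed in 6 of 13 alternatives. *Plk4*, the most abundant, differed by 0.06 (adjusted *p* = 0.797) and 0.06 (0.809).

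Of 6 other genes of IL17 ligands, receptors and adaptors, 1 was higher in *Smarcc1* knockdown and 0 passed in *Smarca4* knockdown (medians -0.21 and 0.02). This was *Il17ra*, the receptor subunit shared by the family (0.72, adjusted *p* = 0.0199, in 6 of 8 libraries), with 0.126 with the block and 0.168 without a hairpin. *Il17rd*, the most abundant, differed by -0.24 (adjusted *p* = 0.728) and 0.12 (0.895). *Il17c*, the ligand of *Il17re*, had 0 reads in 18 of 20 libraries. Of 3 other FoxR and FoxN genes 0 passed by limma (medians 0.34 and 0.25), and the most abundant, *Foxn2*, differed by 0.34 (adjusted *p* = 0.183) and 0.36 (0.199).

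Of 18 other genes of SCAN zinc fingers and of the 2-cell stage, 0 passed in *Smarcc1* knockdown and 1 was higher in *Smarca4* knockdown (medians 0.23 and 0.21). *Zscan4d* was that gene (0.93, adjusted *p* = 0.0441, in 8 of 8 libraries), a call lost in 11 of 14 alternatives, with 0.178 with the block and 0.272 without a hairpin. The *Zscan4* genes are near copies of each other, so their reads may be shared. *Zfp187*, the most abundant, differed by -0.03 (adjusted *p* = 0.915) and -0.02 (0.949).

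Markers of other cells were read beside these genes because several of the 7 are known from single tissues. Among 10 hepatocyte markers, *Alb* had 0 reads in 18 of 20 libraries and *Serpina1a* in 20 of 20. *Apob*, the apolipoprotein of liver-derived particles, was higher in *Smarcc1* knockdown (1.59, adjusted *p* = 0.0116, in 7 of 8 libraries), with 0.0705 with the block and 0.114 without a hairpin.

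Of 10 germline and meiosis genes, 6 were higher in *Smarcc1* and 4 in *Smarca4* knockdown, with 0 lower (medians 0.68 and 0.60). *Stra8*, a gene of meiotic entry, was higher by 3.56 (adjusted *p* = 7.80e-06, in 8 of 8 libraries) and 1.63 (0.00403, in 6 of 8), the latter with 0.0835 without a hairpin. *Mael*, of the piRNA pathway, was higher by 0.74 (adjusted *p* = 0.0245) and 1.17 (0.00297), in all 8 libraries of each, with 0.0921 with the block for the former and 0.110 and 0.0808 without a hairpin. *Dazl*, an RNA-binding protein of germ cells, was higher in *Smarcc1* knockdown (0.91, adjusted *p* = 0.00415, in 8 of 8 libraries). *Sycp1*, of the synaptonemal complex, was higher in *Smarcc1* knockdown (0.85, adjusted *p* = 0.0229, in 8 of 8 libraries), with 0.156 with the block and 0.0666 without a hairpin. *Ddx4*, the most abundant, was higher by 0.42 (adjusted *p* = 0.0449, in 7 of 8 libraries) and 0.69 (0.00525, in 8 of 8), with 0.204 with the block for the former and 0.155 and 0.0818 without a hairpin. *Stra8* stood just outside the 5 largest rises from which the 7 genes come.

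Of 8 pluripotency markers, 7 were higher in *Smarcc1* and 4 in *Smarca4* knockdown, with 0 lower (medians 1.28 and 0.80). *Esrrb*, a factor of the naive state, was higher by 1.84 (adjusted *p* = 6.90e-05) and 1.24 (0.00181), in all 8 libraries of each. *Klf4* was higher in *Smarcc1* knockdown (1.81, adjusted *p* = 9.95e-05, in 8 of 8 libraries). *Dppa3*, also an oocyte gene, was higher by 1.46 (adjusted *p* = 0.00197) and 1.13 (0.0157), in all 8 libraries of each, the latter with 0.0634 with the block and 0.204 without a hairpin. *Tbx3* was higher in *Smarcc1* knockdown (1.51, adjusted *p* = 0.0222, in 8 of 8 libraries), with 0.108 with the block and 0.109 without a hairpin. *Pou5f1*, the most abundant, differed by 0.05 (adjusted *p* = 0.899) and -0.51 (0.122). The summed level of the 8 markers in Nons was 2066, 1400, 1021 and 375 rpm on days 4, 5, 6 and 7. It was 2225, 1984, 1423 and 787 rpm in Smarcc1.6 and 2058, 1460, 930 and 587 rpm in Smarcc1.7. In Smarca4.4 it was 1799, 1337, 729 and 374 rpm, and in Smarca4.6 it was 2164, 1634, 883 and 396 rpm. On day 7 the sum was thus above Nons in both *Smarcc1* hairpins and near it in both *Smarca4* hairpins. *Pou5f1* weighs most in these sums, at a median of 935 rpm in Nons. No other marker of the 8 had a Nons median above 111 rpm.

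Of 6 markers of early differentiation tested, 1 was higher and 3 lower in *Smarcc1* knockdown, and 1 higher and 1 lower in *Smarca4* knockdown (medians -0.58 and -0.04). *Fgf5*, a marker of the primed epiblast, was lower by -1.31 (adjusted *p* = 0.00450) and -1.10 (0.0193), above Nons in 0 of 8 libraries of each, the latter with 0.0820 with the block and 0.0635 without a hairpin. The keratin gene *Krt8* was lower in *Smarcc1* knockdown (-0.71, adjusted *p* = 0.0113, above Nons in 0 of 8 libraries), with 0.0863 with the block and 0.124 without a hairpin. *Krt18*, the most abundant, was lower there too (-0.77, adjusted *p* = 0.0122, above Nons in 1 of 8 libraries), with 0.0786 with the block and 0.0830 without a hairpin. *Gata4*, of the endoderm, was higher by 1.14 (adjusted *p* = 0.00652) and 0.89 (0.0383), in 6 of 8 libraries of each, with 0.0522 and 0.205 with the block and 0.0705 and 0.217 without a hairpin. The summed level of all 10 listed markers, the 4 under the filter included, was in Nons 76.2, 180, 1366 and 3429 rpm on days 4, 5, 6 and 7. It was 58.4, 101, 527 and 1628 rpm in Smarcc1.6 and 62.1, 137, 575 and 1594 rpm in Smarcc1.7. In Smarca4.4 it was 66.2, 182, 1045 and 2937 rpm, and in Smarca4.6 it was 68.0, 225, 1093 and 2028 rpm. On day 7 the sum was thus under Nons with all 4 hairpins, and lowest with both *Smarcc1* hairpins. The part of the stage of differentiation in the levels of the 7 genes was not tested.

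Over the 20 libraries, Pearson's r between the 7 genes on the log2 scale ranged from -0.0525 to 0.935. It was 0.935 between *2410004A20Rik* and *Zscan5b*, 0.931 between *Gjb1* and *2410004A20Rik* and 0.894 between *Zscan5b* and *Ccno*. The lowest among the 6 genes other than *Il17re* was 0.435, between *Neurog3* and *Ccno*, and *Il17re* ranged from -0.0525 with *Gjb1* to 0.491 with *Foxr1*. These libraries share days, hairpins and depth, and genes chosen for the same rise correlate by that choice, so r is a description. The genes most like *Gjb1* were *Spp1* (r = 0.926), *Gm7325* (0.917) and *Kit* (0.911). Those most like *2410004A20Rik* were *Fez1* (0.974), *Scp2* (0.962) and *Fcgrt* (0.958), and those most like *Neurog3* were *Dmrt1* (0.958), *Sox18* (0.911) and *Ctcfl* (0.911). *Foxr1* was most like *Gm6792* (0.897), *Madd* (0.886) and *Timm8a2* (0.881), *Zscan5b* most like *1700029P11Rik* (0.972), *Scp2* (0.971) and *Gm6792* (0.968), and *Ccno* most like *Timm8a2* (0.958), *Prr19* (0.957) and *Abcb1a* (0.9498). *Il17re* was most like *Zbtb8b* (0.906), *Zfp438* (0.856) and *Slc44a2* (0.843).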

How the data were processed

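Per the labels and the methods, the authors aligned reads to mm10 (their notes name HISAT2) and deposited log2 RPM values made with SeqMonk, 1 column per library. Annotation release and strand setting are not given in the sources used here. In each library 0 reads are held as 0.9 read, and from this step whole reads were recovered for 100% of values below 1000 reads (tolerance 0.01 read). The samples without a column, 4 of 24, were not analysed here.

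The 7 genes and the lists were chosen with earlier results of these data known. limma 3.58.1 in R 4.3.3 (lmFit, eBayes with trend) was run on the 13296 genes whose log2 RPM averaged 0 or more. The model had 12 group and day means (8 residual degrees of freedom, or 6 with 2 hairpin terms), with Benjamini-Hochberg adjustment over all genes tested and a threshold of 0.05. The fit was also run on simulated libraries drawn independently of each other, which cannot show how a shared culture series affects the *p*-values. Whether libraries came from separate cultures is not stated. In the fit of 12 means, *p*-values rest on the spread between the 2 hairpins of a target on the same day. This fit treats the days of a hairpin as independent, which the replicate block does not. Nons, with 1 library per day, adds nothing to the spread. The tests of Nons over days and of the difference in day changes, and the fit without the Smarca4.4 library of day 5, were chosen after seeing the data. Named genes were the 7, the targets, genes at the border of the rule, neighbours, the 3 genes with the highest r, and of each list the 4 largest changes past the threshold and the most abundant gene. List markers without reads and hepatocyte markers under the filter were named besides. Results of 2 list genes are not reported here. The lists were connexins, proneural and endocrine factors, multiciliation genes, IL17 genes, FoxR and FoxN genes, SCAN and 2-cell genes, and hepatocyte, germline, pluripotency and early differentiation markers. Promoters were RefSeq windows of GRCm38.p6, and exons came from GENCODE. Alternatives were no filter or a stricter one, adding 1 to RPM, centring, quantile normalization, 1 lowest value for all libraries, limma-voom with the recovered reads, thinning, a replicate block and leaving out each hairpin.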

Additional observations from a re-analysis of the deposited data

Results flagged for a closer look

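*Neurog3* stood out in its course. In *Smarca4* knockdown its log2 difference from Nons was -0.424 on day 4. Both hairpins were then under Nons, with limits that include 1 (ratios 0.930, limits 0.605 to 1.42, and 0.598, limits 0.343 to 1.01). Both were above Nons on days 5, 6 and 7. Its change from day 4 to day 7 was 0.246 in *Smarcc1* knockdown and 0.570 in *Smarca4* knockdown (SE 0.41 each), higher on day 7 with all 4 hairpins, while Nons differed the opposite way, by -4.18. With quantile normalization the change in *Smarcc1* knockdown was -0.40, the same direction as in Nons. In Smarca4.4 the level as deposited went only from 1.79 to 1.83 rpm (42 and 40 reads). Both changes in knockdown lie within 2 SE of 0, as does the difference between them (-0.32, SE 0.58). Their difference from Nons was not tested, and the Nons values rest on 53 reads on day 4 and 2 reads on day 7.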

How the results depend on the processing

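The differences of the 7 genes from Nons stayed positive in every alternative in which they could be computed, but 37 values moved by more than the spread between hairpins and 139 did not. With 1 added to rpm all 14 moved, and *Gjb1* in *Smarcc1* knockdown went from 5.13 to 2.32. Between days or hairpins, 13 values of the 7 turned sign. With a mean of at least 10 rpm only 2 of the 7 passed the filter. *Gjb1* did not pass the usual filter without either *Smarcc1* hairpin, nor *Il17re* without either *Smarca4* hairpin. Comparisons with Nons could not be run without its libraries, and hairpin contrasts were run neither with the block nor with a hairpin left out.

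With a mean of at least 10 rpm, 579 genes passed in *Smarcc1* and 324 in *Smarca4* knockdown (1412 and 892 as reported), and 4168, 4215 and 2672 over days in *Smarcc1* knockdown, *Smarca4* knockdown and Nons (6410, 6403 and 4248), where fewer genes were tested. Thinned to the smallest library, 573 passed in *Smarca4* knockdown. With the replicate block (correlation within a series 0.217), 605 and 258 passed. Hairpin deviations correlated between days at 0.0233 to 0.823 for *Smarcc1* and -0.206 to 0.367 for *Smarca4*, so the series share a name and the pairing is uncertain. The block ended 26 calls of named genes other than the 7. For that difference 19 genes passed with the block and 5 with 1 added to rpm (1 as reported), and 0 with no filter, centred, with limma-voom and without the Smarca4.4 library of day 5.

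With a hairpin or Nons left out, 818 to 1253 genes passed in *Smarcc1* and 272 to 655 in *Smarca4* knockdown, 3740 to 6427 and 3347 to 6428 over days in them, 3569 to 4083 over days in Nons, and 0 to 1 for the difference in day changes. A lone hairpin is then assumed to vary like the others. Higher and lower calls split 1003 and 409 in *Smarcc1* and 631 and 261 in *Smarca4* knockdown. Centred, they split 936 and 523, and 541 and 353, and with quantile normalization 600 and 518, and 351 and 313. Over days they split 3957 and 2453 in *Smarcc1* knockdown, 3604 and 2799 in *Smarca4* knockdown and 2342 and 1906 in Nons. Centred, these were 3166 and 3380, 3101 and 3421, and 2065 and 2229, and with quantile normalization 3135 and 3226, 3093 and 3134, and 2041 and 1968. The cause was not tested.

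Signs turned only for log2 differences that did not pass as reported. Centred, they were -0.026 for *Tspan15*, -0.0083 for *Sox2* and -0.040 for *Krt8* in *Smarca4* knockdown, 0.025 for *Ccno* between *Smarcc1* hairpins, -0.056 for *Il17re* over days in Nons and -0.019 for *Foxr1* between day changes. With quantile normalization they were -0.037 for *Tspan15*, -0.40 for *Neurog3* and -0.39 for *Il17re* over days in *Smarcc1* knockdown, 0.035 for *Ccno* between *Smarcc1* hairpins and -0.43 for *Foxr1* between day changes. With limma-voom *Gm20509* in *Smarcc1* knockdown was at 0.00011. Thinned, it was at 0.085, *Il17rc* in *Smarca4* knockdown at 0.17, *Ccno* between *Smarcc1* hairpins at 0.073 and *Foxr1* between day changes at -0.12. With hairpins left out, the range in *Smarcc1* knockdown was -0.23 to 0.22 for *Gm20509*, -0.27 to 0.10 for *Rsl24d1*, -0.075 to 0.32 for *Gm5424*, -0.24 to 0.11 for *Ccdc84*, -0.34 to 0.12 for *Jagn1*, -0.69 to 0.30 for *Il17rc* and -0.034 to 0.57 for *Smarca4*. In *Smarca4* knockdown it was -0.036 to 0.13 for *Tspan15*, -0.23 to 0.13 for *Ccdc84*, -0.20 to 0.030 for *Il17rc* and -0.27 to 0.043 for *Krt18*, and between day changes -0.86 to 0.22 for *Neurog3* and -0.65 to 0.083 for *Ccno*. Without the Smarca4.4 library of day 5, *Ccdc84* was at 0.015, *Il17rc* at 0.031 and *Krt18* at 0.0018 in *Smarca4* knockdown, and between its hairpins *Foxr1* was at 0.11 and *Il17re* at 0.18. The cause was not tested.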
